A study of Mus musculus with 2 samples.

Results

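Mir6896 to Mir7093 is a run of consecutively numbered mouse miRNA names that was given mostly to predicted mirtrons. Members were chosen by name alone: every miRNA gene of the deposited tables whose symbol lies in the run from Mir6896 to Mir7093, with any suffix. The rule found 199 of the 2202 miRNA genes, or 9.04%. They carry 197 of the 198 numbers in the run, since 6967 has no gene in the tables, and 3 of them have a letter suffix (Mir6973a, Mir6973b and Mir7036b). The tissue was hippocampus of adult wild-type C57BL/6 mice (strain B6NCrl) aged 6 months, labelled as a layer of hippocampus without saying which layer. The labels describe the animals as male, although their field for sex was not filled. Small RNA was sequenced in 2 libraries, biological replicates 1 and 2 of 1 group, so the design holds no comparison between conditions. The labels give the libraries 1 shared donor identifier but separate biosample identifiers, and nothing else says that they came from separate animals. The spread between them, given below as SD (n = 2), may therefore be technical.

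A mirtron is a miRNA precursor that is released by splicing of a host gene's intron instead of by the nuclear enzyme Drosha. In a conventional mirtron the whole short intron, once spliced and debranched, folds into the hairpin that Dicer cuts, so both hairpin ends are splice sites. In a tailed mirtron only 1 hairpin end is a splice site, and the rest of the intron has to be trimmed away. Because the 3′ arm of a mammalian mirtron lies over the end of the intron, it tends to carry the pyrimidine-rich tract and the final AG that mark the 3′ splice site.

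The hairpins of 5 members are shown first because they hold these features and were among the 7 highest in the tissue. Hairpin letters come from the GENCODE release M21 transcripts (GRCm38, mm10) and run 5′ to 3′, with the annotated mature arms of RefSeq (GRCm38.p6) in capitals. Mir7080 (chr8:123130106-123130172, plus strand) and Mir6944 (chr13:55477681-55477776, minus strand) begin with the GU and end with the AG of their intron. Mir7044 (chr6:118085192-118085263, plus), Mir7052 (chr7:44470347-44470411, plus) and Mir7046 (chr7:24970010-24970075, minus) reach only the AG.
Mir7080: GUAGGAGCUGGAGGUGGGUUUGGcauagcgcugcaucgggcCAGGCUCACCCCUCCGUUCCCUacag
Mir6944: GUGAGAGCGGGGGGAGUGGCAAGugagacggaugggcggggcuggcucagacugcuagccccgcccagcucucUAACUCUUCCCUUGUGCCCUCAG
Mir7044: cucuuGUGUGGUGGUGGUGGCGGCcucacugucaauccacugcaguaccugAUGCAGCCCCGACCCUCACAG
Mir7052: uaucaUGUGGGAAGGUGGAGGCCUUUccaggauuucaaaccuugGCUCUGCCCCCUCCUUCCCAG
Mir7046: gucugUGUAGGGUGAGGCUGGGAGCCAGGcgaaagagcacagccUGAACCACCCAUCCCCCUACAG

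The mature arms show the same split between a purine-rich 5p arm and a pyrimidine-rich 3p arm. They are printed for 2 members that span a whole intron and for a pair that shares a seed. The seed, bases 2 to 8 counted from the 5′ end, is in capitals and is the stretch that pairs with target messages.
miR-7080-5p: gUAGGAGCuggagguggguuugg
miR-7080-3p: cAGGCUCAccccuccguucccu
miR-6944-5p: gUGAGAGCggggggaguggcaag
miR-6944-3p: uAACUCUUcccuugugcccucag
miR-7019-5p: aUCUGGGAggggcugucaggagu
miR-6907-5p: uUCUGGGAcacagggaggcucg

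Of the 199 members, 183 had an entry in the RefSeq table, 178 had a hairpin entry and all 178 lay at the same coordinates as in M21. The table gave 350 mature arms of members. Of the 175 annotated 3p arms, 131 (74.9%) ended on the last base of the hairpin, and 22 of the 175 5p arms began on its first base. Pyrimidines made up a median of 72% of a member's 3p arm and 31.8% of its 5p arm, against 54.5% of 556 3p arms and 50% of 552 5p arms of other miRNAs. The 350 arms carried 322 distinct seeds, so the block is no family in the sense of a shared seed. A seed was shared by at least 2 members in 24 cases and by no more than 3. miR-7019-5p and miR-6907-5p shared UCUGGGA, and miR-6926-5p and miR-7055-5p shared CAGUGGG. A seed of a miRNA outside the block was found in 54 arms (15.4%).

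The hippocampal libraries held 4247092 and 5041568 counts on miRNA genes, from 11106392 and 12627039 reads. A count of 0 allows up to 3 counts, or 0.706 CPM (a gene's counts scaled to 1000000 counts on miRNA genes) in replicate 1 and 0.595 CPM in replicate 2. The tissue label was checked against miRNA markers of cell types. Of 9 neuronal marker genes 6 reached 10 CPM in both libraries, with 202956 and 181833 CPM in sum. The markers of oligodendrocytes (2 of 2), endothelium (1 of 1), choroid plexus and ciliated cells (3 of 3) and microglia and leukocytes (3 of 4) also reached it, and 0 of 2 erythroid markers did. The choroid plexus and ciliated-cell markers had a summed level of 9201 CPM in replicate 1, and of 3116 CPM in the other library.

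Most predicted mirtrons of the block left reads in the hippocampus, and nearly all of them at low levels. At least 1 count was seen in both libraries for 143 of 199 members (71.9%), while 29.7% of all miRNA genes reached that. A count in either library was seen for 173 members (86.9%, against 36.3% of all miRNA genes). A read aligned to several places is in no gene's count, which bears on these comparisons. A stretch of 20 bases is shared with a hairpin elsewhere by 2 members and by 1085 of the 2003 other genes. Among the 964 other genes named Mir and a number, 252 share one. How far this lowered the counts of other genes was not tested. Replicate 1 held counts for 152 members and replicate 2 for 164. The members seen in 1 library only, 9 in replicate 1 and 21 in replicate 2, had at most 8 counts there. For 26 members both libraries had 0 counts, which at these depths limits them to under 0.706 and 0.595 CPM and does not show that they are absent.

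The share of the block that was counted lay above that of other numbered miRNAs at 1 and 3 counts per library and below it at 5 and 10. At least 3 counts in both libraries were reached by 99 members (49.7%), at least 5 by 78 (39.2%) and at least 10 by 57 (28.6%, against 19.3% of all miRNA genes). Among the 964 other genes named Mir and a number the corresponding shares were 48.3% at 1 count, 43.3% at 3, 40.0% at 5 and 35.8% at 10. Only 11 members (5.53%) reached 10 CPM in both libraries, compared with 13.7% of all miRNA genes. Mir7080 was the 1 member above 100 CPM in both.

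**Figure D1:**
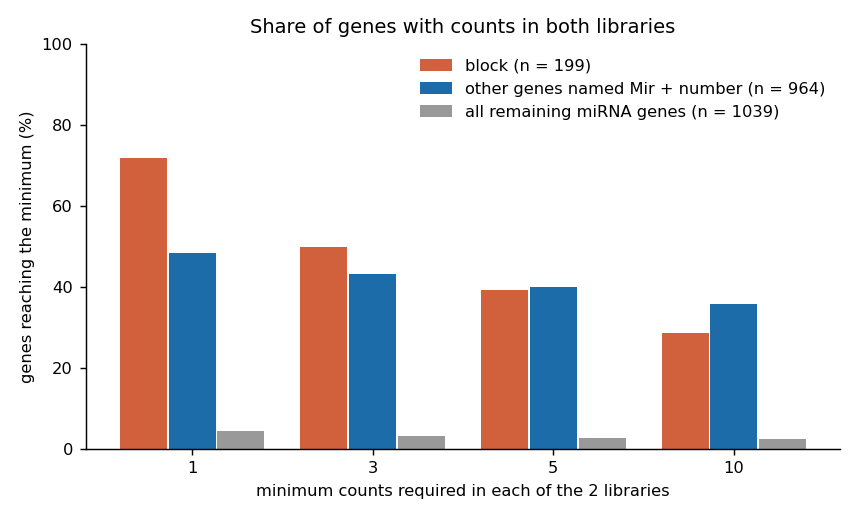
Bars give the percentage of genes (vertical axis) with at least 1, 3, 5 or 10 counts in each of the 2 libraries (horizontal axis) for the 199 block members, 964 other genes named Mir and a number and 1039 remaining miRNA genes. The block has the tallest bar at 1 count (71.9%) and lies below the other numbered genes at 10 counts (28.6% against 35.8%).

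In sum the block took 3681 counts in replicate 1 and 5330 in replicate 2. These were 867 CPM (exact 95% binomial interval 839 to 895) and 1057 CPM (1029 to 1086), or 0.0867% and 0.106% of the counts on miRNA genes, with a mean of 962 ± 135 CPM (SD, n = 2). The intervals cover counting error only. The sum was 1.22 times as high in replicate 2 (1.17 to 1.27) and 1.20 times as high without Mir7080. The gap between the libraries depends on the scaling. It was smaller with TMM library sizes, where the block's mean was 960 ± 100 CPM (SD, n = 2). Members with counts in both libraries had a median of 1.89 CPM (quartiles 0.679 and 4.26), and other miRNA genes with counts in both had 26.9 CPM. Counts are per hairpin and were not scaled by length, and the length of the reads was not analysed here.

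A few hairpins carried most of the block's reads. Mir7080 alone held 32.2% of the block's counts in replicate 1 and 33.6% in replicate 2. The 4 highest members held 51.9% and 53.5%, and the 30 highest 79.6% and 80.7%. At the other end, 27 members had 1 to 2 counts over both libraries, 62 had 3 to 9, 17 had 10 to 19, 37 had 20 to 49 and 30 had more. Thus 84 members had the 10 counts needed for a comparison of the libraries. The members just inside that minimum were Mir7042 (5 and 5 counts) and Mir7036b (3 and 7), and just outside it with 9 counts were Mir6908, Mir6966, Mir7008, Mir6999 and Mir7085.

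Mir7080 (ENSMUSG00000098582.1) was counted 1186 times in replicate 1 and 1790 times in replicate 2, or 317 ± 53.6 CPM (SD, n = 2), rank 141 of all 2202 miRNA genes. Its 67 bases are an entire intron of Cpne7, which encodes a copine, a calcium-dependent membrane-binding protein. Retained-intron transcripts of the locus also cover the hairpin. Mir7044 (ENSMUSG00000098583.1) had 318 and 368 counts, 73.9 ± 1.33 CPM, and lies at the 3′ end of a 705-base intron of Rasgef1a, which encodes an exchange factor for Ras-family GTPases. In another protein-coding transcript of that gene 27 of its bases are exonic. Mir7047 had 261 and 401 counts, or 70.5 ± 12.8 CPM. Mir6944 (ENSMUSG00000098341.1), with 147 and 292 counts or 46.3 ± 16.5 CPM, is a whole 96-base intron of Dbn1, which encodes drebrin, an actin-binding protein of dendritic spines. In both libraries Mir7080 was the highest and Mir6944 the fourth, while Mir7044 and Mir7047 changed places between the libraries and do not differ beyond their spread.

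The next members lay between 13.4 and 21.7 CPM on average, and most of them overlapped in level. Mir7019 had 66 and 140 counts (21.7 ± 8.65 CPM) and ends a 1173-base intron of Pink1, a mitochondrial kinase gene. All 69 of its bases are also exonic in another protein-coding transcript of Pink1. Mir7052 had 72 and 125 counts (20.9 ± 5.54 CPM) in Josd2, a deubiquitinase gene. Mir7046 had 63 and 114 counts (18.7 ± 5.50 CPM) in a 77-base intron of Rabac1, a Rab-binding protein of the Golgi. Its hairpin leaves 11 intron bases uncovered. Mir6897 had 69 and 85 counts in Uggt1, whose product senses misfolded glycoproteins, and Mir6953 had 58 and 84 in Grina, a membrane protein gene named for glutamate receptors. Mir6928 had 85 and 48 counts in Atp6v0a1, a membrane subunit of the proton pump that acidifies vesicles. It stands out as the member among the 10 highest that was clearly lower in replicate 2. Mir7066 had 61 and 75 counts in Ncan, which encodes the brain matrix proteoglycan neurocan, and Mir6982 had 51 and 75 in Camk2a, the kinase of excitatory postsynapses.

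**Figure D2:**
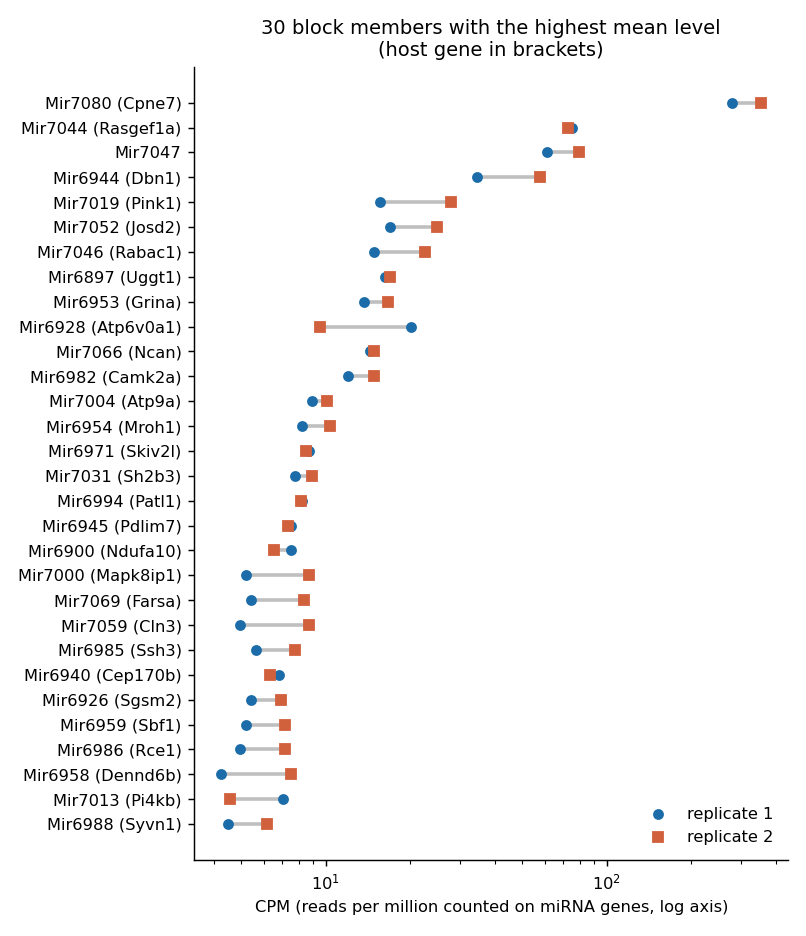
Each line shows 1 of the 30 members with the highest mean level, with its host gene in brackets except for Mir7047, and the horizontal log axis gives CPM in replicate 1 (circles) and replicate 2 (squares). Mir7080 stands apart at 279 and 355 CPM, and 22 of the 30 members have the higher CPM in replicate 2.

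The rest of the 30 highest members lay between 5.31 and 9.53 CPM on average. In order of level they were Mir7004 (Atp9a, a lipid flippase), Mir6954 (Mroh1), Mir6971 (Skiv2l, an RNA helicase of the cytoplasmic exosome pathway), Mir7031 (Sh2b3, a signalling adaptor), Mir6994 (Patl1, an mRNA decay factor), Mir6945 (Pdlim7, a cytoskeletal adaptor) and Mir6900 (Ndufa10, a subunit of respiratory complex I). They were followed by Mir7000 (Mapk8ip1, a scaffold of JNK signalling), Mir7069 (Farsa, a tRNA synthetase subunit), Mir7059 (Cln3, a lysosomal membrane protein), Mir6985 (Ssh3, a cofilin phosphatase), Mir6940 (Cep170b), Mir6926 (Sgsm2, a Rab regulator) and Mir6959 (Sbf1, a myotubularin-related protein). The last were Mir6986 (Rce1, a protease of prenylated proteins), Mir6958 (Dennd6b, a DENN-domain protein), Mir7013 (Pi4kb, a lipid kinase of the Golgi) and Mir6988 (Syvn1, a ubiquitin ligase of the endoplasmic reticulum). Their counts ranged from 18 to 38 in replicate 1 and from 23 to 52 in replicate 2, so neighbours in this order do not differ beyond their spread. Of these 30 members 3 overlap an exon of a protein-coding transcript: Mir7044, Mir7019 and Mir6945.

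Host genes were then listed by the counts of their mirtrons, as a description made after the values were seen. All 199 members lie on the same strand as a protein-coding host, in 194 host genes, of which 169 held a member with counts. Host messages were not measured in these libraries. Below the 30 highest, 37 members had 20 to 46 counts in all. The 5 highest of them were Mir7037 (11 and 35 counts) in Ints1, a subunit of the Integrator complex, Mir7055 (16 and 28) in Slc17a7, a vesicular glutamate transporter of neurons, Mir7071 (15 and 29) in Heatr3, Mir7063 (20 and 22) in Ap2a2, an adaptor of endocytosis, and Mir6907 (11 and 32) in Rrp1, a ribosomal RNA processing factor. The 26 members with 0 counts lay in 26 hosts of varied kinds. Among these were Myh3 (embryonic muscle myosin), Clps and Ctrb1 (pancreatic digestive proteins), Mcpt8 and Cpa3 (proteases of basophils and mast cells), Lat and Grap2 (T-cell adaptors), Ltb (a lymphotoxin), Il10ra (a cytokine receptor), Nlrc5 (an activator of MHC class I genes), C3 and Cfb (complement) and Mst1 (a protein secreted by liver). The others were Acap1, Azin1, Bin2, Helz, C2cd2, Arap3, Stx5a (a Golgi syntaxin), Mybl2 (a cell-cycle transcription factor), Lama5 (a laminin chain), Gcn1l1, Fxyd5, Lrrk1 and Dnase1l1. Hosts of immune cells also held counted members, such as Mir7062 (4 and 7 counts) in Adam8, a protease of leukocytes. The kinds of host were not tested against the counts.

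Hairpins in the same host did not always share a level. In Skiv2l, Mir6971 had 37 and 43 counts and Mir6970 had 3 and 2, although both lie on the same primary transcript. In Ankrd52, a subunit of a protein phosphatase, Mir6915 had 14 and 26 counts and Mir6914 had 3 and 3. In Srebf1, a regulator of lipid synthesis, both were low, with 3 and 4 counts for Mir6922 and 2 and 1 for Mir6921. Mir6970 shares a stretch of 20 bases with another annotated hairpin, so reads that align to both would be in neither count. This applied to 2 members in all, Mir6970 and Mir7065. Cmip and Arap3 also held a pair of members each, with 8 and 2 counts in sum.

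The position of the hairpins in their introns fitted the tailed form far more often than the conventional one. With a tolerance of 5 bases, the 3′ end of 186 members (93.5%) lay at the 3′ end of an annotated intron, against 43 of 2003 other miRNA genes (2.15%). In 185 members the distance was exactly 0. The names of this run were given mostly to predicted mirtrons, which by definition have a hairpin end at a splice site. The contrast with other miRNA genes therefore largely restates the naming. Both ends matched in 15 members (7.54%), the 3′ end alone in 171 (85.9%) and the 5′ end alone in 4 (2.01%), and neither end in 8. Of these 8, 7 ran past the 3′ end of the intron into the exon by 6 to 7 bases, just outside the tolerance. Mir7036b lay away from both ends, and all 63 of its bases are also covered by protein-coding exons of Add1. Mir7025 matched no intron, and 30 of its 74 bases are exonic in a protein-coding transcript of Pdgfra. In the 171 members that reach only the 3′ end, the intron extended past the hairpin's 5′ end by 7 to 36205 bases (median 512), and by at most 100 bases in 42. Their introns had a median of 575 bases, and those of the members matched at both ends 83 bases, with a range of 67 to 137.

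Members of both forms were counted, and most of the reads of the conventional form came from Mir7080. Counts in both libraries were found for 8 of 15 members with both ends at splice sites and for 125 of 171 (73.1%) with the 3′ end alone. Outside the block the corresponding numbers were 7 of 8 and 25 of 35 (71.4%), while 259 of 728 other intronic hairpins with neither end within 5 bases (35.6%) and 134 of 999 without a host on their strand (13.4%) had counts in both. The 15 members matched at both ends took 37.5% of the block's counts in replicate 1 and 40.4% in replicate 2, or 39.0 ± 2.07% (SD, n = 2), and 9.03% when Mir7080 is left out. After Mir7080 and Mir6944 they were led by Mir6958 in Dennd6b (18 and 38 counts), Mir7068 in Cherp (12 and 17) and Mir7070 in Fbxw9 (12 and 10). The other 10 had at most 5 counts in sum, and Mir6923 (Myh3), Mir6981 (Arap3), Mir7058 (Lat), Mir7088 (Mst1) and Mir7091 (Dnase1l1) had none.

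**Figure D3:**
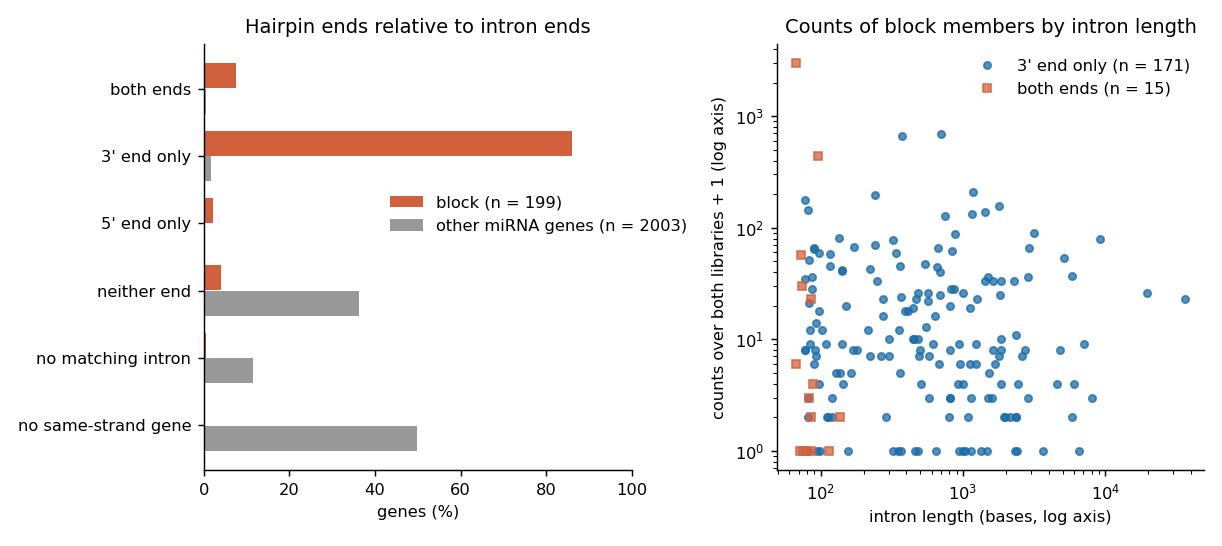
Left, the percentage of the 199 block members and of 2003 other miRNA genes (horizontal axis) whose hairpin ends match both ends, 1 end or neither end of an intron within 5 bases, or that have no matching intron or no gene on their strand. Right, counts over both libraries plus 1 against intron length in bases, both on log axes, for members matched at the 3′ end only (circles, n = 171) and at both ends (squares, n = 15). The 3′ end only class holds 85.9% of the block, and its counts spread over the whole range of intron lengths.

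Counts hardly followed intron length. Among the 171 members matched at the 3′ end only, the 57 with the shortest introns (77 to 302 bases) had a median of 8 counts over both libraries, the next 57 (304 to 1037 bases) had 9 and the 57 with the longest (1089 to 36269 bases) had 6. At least 10 counts in sum were found for 28, 28 and 21 of them. Across members, which share libraries and depth, Spearman's rho of summed counts was -0.06 with intron length (198 members), -0.04 with hairpin length and 0.29 with GC content (199 members). It was -0.17 with the predicted folding energy per 100 bases. These are weak relations among sparse counts and are given as a description.

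The hairpins carried the letters of a 3′ splice site at their end. This restates their position, since 185 members end exactly at the 3′ end of an annotated intron. AG were the last 2 bases of 185 members (93.0%) and of 150 other miRNA genes (7.49%). GU were the first 2 bases of 31 members (15.6%) and of 114 other miRNA genes (5.69%). Only 18 members began exactly at the 5′ end of an annotated intron, so not every GU start is a splice site. The base before the AG was a pyrimidine in 183 of those 185 members (98.9%). In the last 20 bases pyrimidines had a median share of 70%, and in the first 20 a median share of 30%, while other hairpins had 50% at both ends. The first 20 bases held a median of 45% G, against 30% in other hairpins. Members were also shorter (median 66 against 93 bases), richer in GC (57.4% against 50%) and more often predicted to fold with a single loop (191 members, 96.0%, against 74.2% of others). Such traits were also found outside the block. The 35 other genes whose 3′ end alone lies at an intron end had medians of 64 bases and 55% GC. Of these, 97.1% were predicted to fold with a single loop. Their pyrimidine medians were 70% in the last 20 bases and 35% in the first 20, and 51.4% ended in AG. Their first 20 bases held a median of 45% G, the same as in the block. Among the 964 other genes named Mir and a number, 93.4% were predicted to fold with a single loop. Their medians were 84 bases and 49.2% GC. Predicted folding energy was a median of -26.2 kcal/mol against -34.3 in other hairpins, and -38.9 against -36.5 per 100 bases. The direction per 100 bases depended on the genes compared. It was -41.1 in the 964 other genes named Mir and a number and -31.9 in the 1039 remaining genes. The 30 highest members had the same median pyrimidine share in their last 20 bases, 70%, as the whole block.

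**Figure D4:**
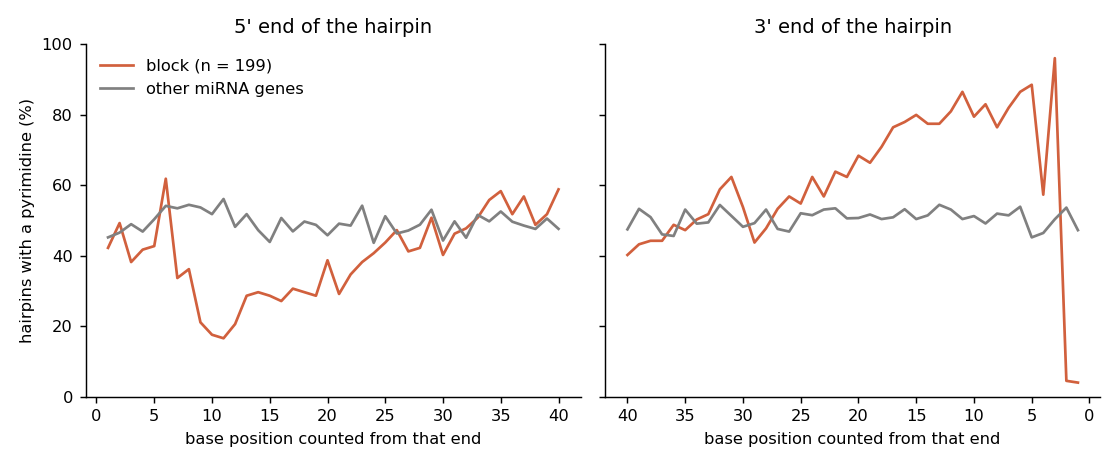
The lines give the percentage of hairpins with a pyrimidine (vertical axis) at each base counted from the 5′ end (left) and from the 3′ end (right), for the 199 block members and for the other miRNA genes. In the block the line lies above 76% from base 5 to base 17 counted from the 3′ end and drops to 4.52% and 4.02% at the final 2 bases, while other hairpins stay near 50%.

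Part of the block also lies over annotated exons. An exon of some transcript on the same strand overlaps 41 members, an exon of a protein-coding transcript 20 and a retained-intron transcript 23. Without those 41, among them Mir7080, Mir7044 and Mir7019, the block's summed level was 491 CPM in place of 962 CPM. Much of that difference is Mir7080, at 317 CPM. It has 0 bases in a protein-coding exon and is covered by a retained-intron transcript. The tables give 1 count per hairpin and not where in the hairpin the reads lie, so mature arms and fragments of host transcripts cannot be told apart. On the opposite strand the members had 0 counts in replicate 1 and 2 in replicate 2.

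The libraries were compared member by member to learn how far each level can be relied on. Of the 84 members with at least 10 counts in sum, 12 (14.3%) differed between the libraries by the exact two-sided binomial test with Benjamini-Hochberg adjustment over all 522 genes tested. Of these 9 were higher in replicate 2 (28.2% of all tested miRNA genes were) and 3 were lower (22.8% of all were). At an unadjusted p under 0.05 there were 17 of the 84 members, against 290 of all 522 genes tested. The tested members had a median of 35 counts in sum and all tested genes 242.5. Among the 224 other genes with no more counts than Mir7044, 64 (28.6%) were called, at a median of 63.5 counts. The median log2 ratio of replicate 2 over replicate 1 was 0.28 for the members and 0.09 for all tested genes. The test compares the reads of these 2 libraries and not conditions. The labels name separate versions of the trimming document for them, and its part in these differences was not tested.

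Among the 7 highest members the log2 ratios stayed between -0.04 and 0.83. Mir7080 had a log2 ratio of 0.35 (exact 95% interval 0.24 to 0.45) and an adjusted p of 4.06e-10 in the exact binomial test. Mir7047 had 0.37 (adjusted p 0.0029, exact binomial test) and Mir6944 had 0.74 (6.51e-07). Mir7019 had 0.83, Mir7046 0.60 and Mir7052 0.54, the last with an adjusted p of 0.0203 in the exact binomial test that became 0.0524 when TMM library sizes were used. Mir7044, with 318 and 368 counts, had a log2 ratio of -0.04 (-0.26 to 0.18).

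Ratios larger than these belonged mostly to members with few counts. Mir6936 had 4 counts in replicate 1 and 35 in replicate 2, a log2 ratio of 2.73 (1.40 to 4.84, adjusted p 8.00e-06 in the exact binomial test). It lies at the 5′ end of a 66-base intron of Sirt7, a nuclear deacylase gene, with its 3′ end 12 bases short of the intron's end, and is 1 of the 4 members matched at the 5′ end only. Mir7037 (11 and 35 counts) and Mir6907 (11 and 32) had log2 ratios of 1.38 and 1.25. In the other direction, Mir6928, the tenth in level with 85 and 48 counts, had a log2 ratio of -1.07, Mir6979 in the actin regulator Diaph1 one of -1.70 (20 and 7) and Mir6899 in the transcription factor gene Klf7 one of -1.92 (17 and 5).

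**Figure D5:**
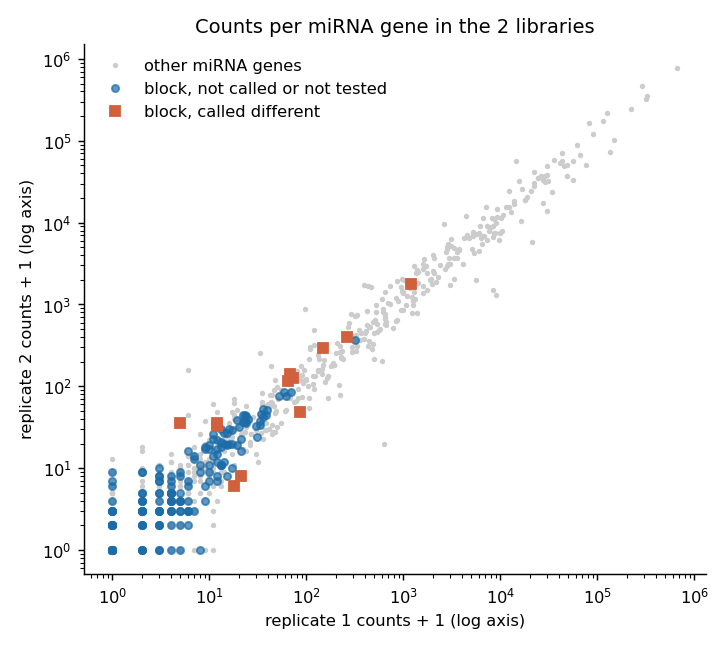
Each point is a miRNA gene, with counts plus 1 in replicate 1 on the horizontal log axis and in replicate 2 on the vertical log axis. Grey points are genes outside the block, circles are block members that were not tested or not called, and the 12 squares are members called different by the exact binomial test. Most members lie in the lower left with under 100 counts, and Mir6936 (4 and 35 counts) lies farthest from the diagonal among the called members.

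A list of mirtrons and Drosha-independent miRNAs that were known before the block was named is set beside it. The list held Mir877, Mir1224, Mir702, Mir1981 and Mir3102 from introns, and Mir320 and Mir484, whose precursors bypass Drosha in another way. All 7 had counts in both libraries. Mir320 (2885 ± 252 CPM) and Mir484 (2318 ± 60.4 CPM), which lie in no gene on their strand, were the highest. The 5 intronic genes summed to 1625 and 2272 CPM, and the 199 members to 867 and 1057 CPM. The lowest of them, Mir1224, had 723 and 1659 counts (250 ± 112 CPM) and Mir877 had 968 and 1480 (261 ± 46.4 CPM), both below the mean of Mir7080 at 317 ± 53.6 CPM. Mir702 stood at 289 ± 126 CPM. Mir1981 stood at 352 ± 25.6 CPM and Mir3102 at 797 ± 198 CPM. Mir3102, Mir1981, Mir877 and Mir1224 match both ends of their introns exactly, as Mir7080 and Mir6944 do. Mir6944, the second member of that form, lay at 46.3 ± 16.5 CPM and thus below all 7. Outside the list, 2 further numbered genes that match both intron ends were lower than these 7: Mir3547 in Baiap3 (96 and 868 counts, 97.4 ± 106 CPM) and Mir1982 in Oaz1 (69 and 114 counts, 19.4 ± 4.50 CPM), the latter also below Mir6944. No test was made between these groups of genes.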

How the data were processed

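The authors deposited raw counts per miRNA gene, 1 table per library and not normalised; per the file headers they rest on mm10 and the M21 release of GENCODE. The sources used here do not name an aligner or a counter. Of the 3 columns of counts, the column on the strand of the gene was used, identified from its values. The 4 summary entries that name no gene were left out of library sizes: in replicate 1 and replicate 2 they held 15.1% and 11.4% of reads as unmapped, 43.8% and 45.7% as multimapping and 2.92% and 3.005% outside miRNA genes. A read aligned to several places is thus in no gene's count. CPM is scaled to 1000000 counts on miRNA genes.

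Hairpin positions, introns and hairpin sequences came from M21. Folding used RNAfold 2.7.2 and mature arms came from RefSeq. For members whose hairpin touched several introns, the intron with most ends within 5 bases was taken, then the nearest. Libraries were compared by asking with an exact binomial test (two-sided) whether replicate 2 held more or less than its share of a gene's summed counts (minimum 10), with Benjamini-Hochberg adjustment over all tested genes and a threshold of 0.05; log2 ratios had 0.5 counts added to each library. The quasi-likelihood test of edgeR could not be fitted to 1 library against 1, so edgeR 4.0.16 (TMM) and DESeq2 1.42.0 (R 4.3.3) served only for scaling alternatives. The test procedure was tested on simulated data that held counting error only, as the test assumes. The simulation cannot show how the test handles further spread between libraries. In the real data 266 of 522 tested genes (51.0%) were called. Other work used scipy 1.17.1 and pandas 2.3.3 under Python 3.11.15, and figures were drawn with matplotlib 3.10.9.

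Members were taken by name alone, but this rule and the lists were chosen with earlier results of these data known. Named members are those with at least 10 counts in sum, at most 30 in order of mean CPM, those just inside and outside that minimum, those called by the binomial test and the 3 hosts with several counted members of highest sum; others named were chosen after their values were seen. Alternatives covered count minimums, the column of counts, scaling, tolerance and the omission of libraries or members. Sequences of members on chromosome 18 are not shown, and the host gene of Mir7047 is not reported here.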

Additional observations from a re-analysis of the deposited data

How the results depend on the processing

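The number of members with counts in both libraries was 143, and was 78 at 5 counts and 57 at 10 counts in each library, and 8 of 15 when only hairpins matched at both intron ends were kept. Leaving 1 library out relaxes the rule to a count in the other, which 152 members met in replicate 1 and 164 in replicate 2. The summed level of 962 CPM became 377 CPM over all reads, 645 CPM without Mir7080, 491 CPM without hairpins that overlap an exon and 376 CPM for hairpins matched at both ends, and with 1 library left out it ranged from 867 to 1057 CPM. The share of the level in hairpins matched at both ends, 39.0%, was 9.03% without Mir7080, a choice made after seeing the data, and ranged from 37.5% to 40.4% with 1 library left out. The 12 members called by the binomial test became 11 under TMM or DESeq2 scaling, all 11 shared, and 14 at a minimum of 5 counts or 1 count. Mir7052 was the call lost (adjusted p 0.0524 and 0.0526 in the exact binomial test). Under TMM 8 members were called higher and 3 lower in replicate 2, beside 123 and 135 of all tested genes. Without that scaling the calls among all tested genes were 147 and 119. With a minimum of 5 counts 10 members were higher and 4 lower, beside 148 and 121 of all tested genes. With a minimum of 1 count the members gave the same numbers, beside 146 and 121. Under TMM the median log2 ratio of all tested genes moved from 0.09 to 0.02 and that of members from 0.28 to 0.21. Hairpins matched at both ends numbered 14 at 0 or 2 bases allowed and 18 at 10. No paired analysis was possible because there is 1 group. Depth limits the members under 10 counts in sum, for which neither a library difference nor an order of levels could be read.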
